A study of Mus musculus with 18 samples.

Results

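Interleukin-1 family and inflammasome genes were followed in cartilage of the mouse knee after rupture of the anterior cruciate ligament (ACL). The 10 genes were taken from a fixed list of names, which was chosen with earlier results of these data known. They comprised the ligands Il1a, Il1b, Il1rn, Il33 and Il18, the receptors Il1r1, Il1r2 and Il1rl1, and the inflammasome genes Nlrp3 and Casp1. All 10 were found among the 49184 genes of the annotation, and all 10 passed the filter on low counts in each fit. The mice were male C57Bl/6J, aged 12 weeks, and in the ruptured animals a single load of 12 N tore the ligament of the right knee while the left knee served as the contralateral control. The 18 libraries comprised 6 from naïve mice that were never loaded, 3 from injured and 3 from contralateral knees at day 1, and 3 from injured and 3 from contralateral knees at day 7. The naïve libraries are labelled day 7, so comparisons of day 1 knees with them also cross days. Each of the 18 was made from pooled femoral cartilage caps as stranded total RNA without ribosomal RNA. By the study's scheme a library held knees of 2 mice at day 1 and 4 mice at day 7, and the 6 naïve libraries came from 6 mice, with left knees pooled separately from right knees, whereas the series text gives 4 mice for each sample. By the scheme, naïve libraries of left and right knees share mice, so the 6 are not independent of each other. The labels do not say which libraries share mice, so all were treated as independent. The p-values, those of the permutation tests included, measure only the spread between these libraries. The study dropped an unnamed library of the ACL experiment because few of its reads could be mapped, and whether that library is among those used here is not known, so none was left out on that ground. Estimated counts totalled 16074762 to 41794005 per library, with a median of 25465706.

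The tissue label was checked against markers before the results. Chondrocyte markers, with Col2a1 holding the most counts of 13, summed to between 4003 and 15217 CPM per library (counts scaled to a common library size with edgeR's TMM factors). Marrow markers held counts in every library as well. The sums were between 8825 and 18058 CPM for 14 neutrophil and marrow myeloid genes and between 16761 and 64660 CPM for 8 erythroid genes. Osteoblast and osteocyte markers summed to between 7669 and 55587 CPM, of which Col1a1, a collagen that fibroblasts also make, was 92.0% to 98.7%, and the 9 others to between 562 and 1170 CPM. Skeletal muscle markers summed to between 2921 and 14382 CPM. The libraries labelled cartilage also held RNA of marrow and muscle markers, and a level given here is that of the whole pool. Replicate 1 of the day 7 contralateral libraries stood apart, with 42.5% of its counts in its 10 most abundant genes against 16.6% to 29.8% in the other libraries. Calls in the main edgeR fit that rest on it are given with and without it, as values or as counts.

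Interleukin-1α and interleukin-1β, the products of Il1a and Il1b, bind the signalling receptor IL-1R1 together with the accessory chain encoded by Il1rap, and the signal passes through Myd88 to NF-κB. Il1rn encodes the receptor antagonist, which occupies the same receptor without signalling, and Il1r2 encodes a decoy receptor that binds the ligands and does not signal. Interleukin-33 is an alarmin held in the nucleus of stromal and endothelial cells, and its receptor ST2, encoded by Il1rl1, is made as a membrane form that signals and as a soluble form that traps the ligand. The precursors of interleukin-1β and interleukin-18 are cut by caspase-1, which is activated on a complex of the sensor Nlrp3 and the adaptor encoded by Pycard. In cartilage, interleukin-1 is known for driving chondrocytes to release metalloproteinases and prostaglandins.

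Several members lie close to each other in the genome. In GRCm38, Il1r2 (chr1:40074079-40125231), Il1r1 (chr1:40225080-40317257) and Il1rl1 (chr1:40429570-40465415) lie in a row of receptor genes on the plus strand of chromosome 1, and Il1rl2, Il18r1 and Il18rap stand in the same row. Il1a (chr2:129299610-129309972) and Il1b (chr2:129364570-129371139) lie on the minus strand of chromosome 2, which also holds Il1rn (chr2:24336853-24351494). Il33 lies at chr19:29925114-29960718, Casp1 at chr9:5298517-5307265, Il18 at chr9:50554827-50581840 and Nlrp3 at chr11:59541568-59566956. All 10 are protein-coding. The promoters shown are those of Il33 and Il1r1, the members called higher at day 7, at the start that gave most of their RNA. Those of the distal and proximal start regions of Il1rl1, where its soluble transcripts and a membrane transcript start, are shown too. Each is the 250 bases before the start in RefSeq's GRCm38.p6, read 5′ to 3′ on the plus strand, with matches to 4 searched motifs in capitals. The motifs, searched on both strands, were the NF-κB motif GGGNNNNNCC, the motif TGANTCA of the AP-1 family, the motif GGAATG of the TEAD family and the box TATAAA near many starts.
Il33, distal start, chr19:29924863-29925112: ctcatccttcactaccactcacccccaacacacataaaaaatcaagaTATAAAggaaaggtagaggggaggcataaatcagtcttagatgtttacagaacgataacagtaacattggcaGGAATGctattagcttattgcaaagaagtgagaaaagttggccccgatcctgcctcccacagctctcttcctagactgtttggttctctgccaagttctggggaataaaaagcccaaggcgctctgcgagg
Il1r1, proximal start, chr1:40266336-40266585: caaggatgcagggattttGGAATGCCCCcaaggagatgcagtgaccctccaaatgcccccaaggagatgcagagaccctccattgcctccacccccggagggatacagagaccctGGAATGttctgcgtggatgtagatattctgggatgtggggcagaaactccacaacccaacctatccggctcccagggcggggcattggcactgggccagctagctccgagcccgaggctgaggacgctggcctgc
Il1rl1, distal start, chr1:40429320-40429569: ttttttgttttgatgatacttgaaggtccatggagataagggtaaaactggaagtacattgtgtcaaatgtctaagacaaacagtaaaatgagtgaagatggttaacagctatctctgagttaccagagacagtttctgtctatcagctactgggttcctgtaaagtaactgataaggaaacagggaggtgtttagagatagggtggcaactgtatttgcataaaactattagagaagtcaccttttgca
Il1rl1, proximal start, chr1:40439379-40439628: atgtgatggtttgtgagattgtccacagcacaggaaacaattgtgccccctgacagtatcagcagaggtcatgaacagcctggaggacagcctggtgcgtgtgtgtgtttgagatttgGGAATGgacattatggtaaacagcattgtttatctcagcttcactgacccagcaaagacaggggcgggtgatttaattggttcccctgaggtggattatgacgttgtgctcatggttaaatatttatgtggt
The capitals mark GGAATG 131 bases before the distal start of Il33, together with TATAAA 203 bases before it. In the Il1r1 window GGAATG stands 232 and 135 bases before the start, and the match farther from the start overlaps an NF-κB match on the other strand, GGAATGCCCC. The proximal window of Il1rl1 holds GGAATG 132 bases before the start, and the distal window holds none of the 4 motifs. Of 32851 windows of the same length, 12.6% held GGAATG, 45.8% the NF-κB motif, 6.75% the AP-1 motif and 12.4% TATAAA. Among member windows that are not printed, GGAATG also stood in the proximal one of Il33 and in one of Il1rn, a gene that was not called. The other member windows, among them all of Il1a, Il1b, Il18, Il1r2, Nlrp3 and Casp1, held none. Whether the motif is more frequent in members than in other genes was not tested. A match describes the letters and not a bound site.

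Levels were compared between genes only per length, as TPM. In the naïve libraries Il1r2 (7.53 ± 2.06 TPM, SD, n = 6) and Il1rn (7.01 ± 1.52) had the highest mean TPM of the 10, followed by Il1b (5.50 ± 1.97), Casp1 (5.35 ± 1.10) and Il1rl1 (4.97 ± 1.68). Il1r1 (3.69 ± 1.12), Il18 (3.58 ± 1.09), Nlrp3 (2.02 ± 0.490), Il33 (1.55 ± 1.10) and Il1a (0.959 ± 0.192) were lower. The ranges of every pair of neighbours in this order overlapped, and within a library the order held in 6 of 6 for only Il1rl1 over Il1r1 and Il18 over Nlrp3. In the day 7 injured libraries the order opened with Il1rl1 (6.39 ± 2.46 TPM, n = 3) and Il1r1 (5.31 ± 1.34), and the antagonist Il1rn (4.67 ± 0.955) and the decoy Il1r2 (4.31 ± 0.887) came after Il1b (5.04 ± 0.714). There only Il33 over Nlrp3 and Nlrp3 over Il1a had ranges that did not overlap. All further levels of the 10 genes are CPM, which are compared within a gene only.

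At day 7 the injured knees held more Il33 and Il1r1 RNA than the naïve knees, the cytokine genes Il1b and Il18 and the inflammasome genes were not called, and Il1a was lower by slightly less than the limit. Calls required a 1.5-fold difference or more together with an FDR, from edgeR's quasi-likelihood test, no higher than 0.05. By this rule 2 of the 10 genes were called higher, where 10.4% of all 21129 genes tested were, and none of the 10 was called lower, where 6.11% of all genes were. DESeq2 and limma-voom each called 2 of the 10 as well, and 4 had an unadjusted p under 0.05 in edgeR, as did 41.1% of all genes. The groups did not overlap for Il33 and Il1r1, whose injured libraries were all above the naïve ones (17.4% of all genes), and for Il1a, all below (10.8% of all genes). The median log2 fold change of the 10 was 0.03, against -0.04 over all genes tested. In pooled tissue fewer cells of a type and less RNA per cell cannot be told apart.

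**Figure D1:**
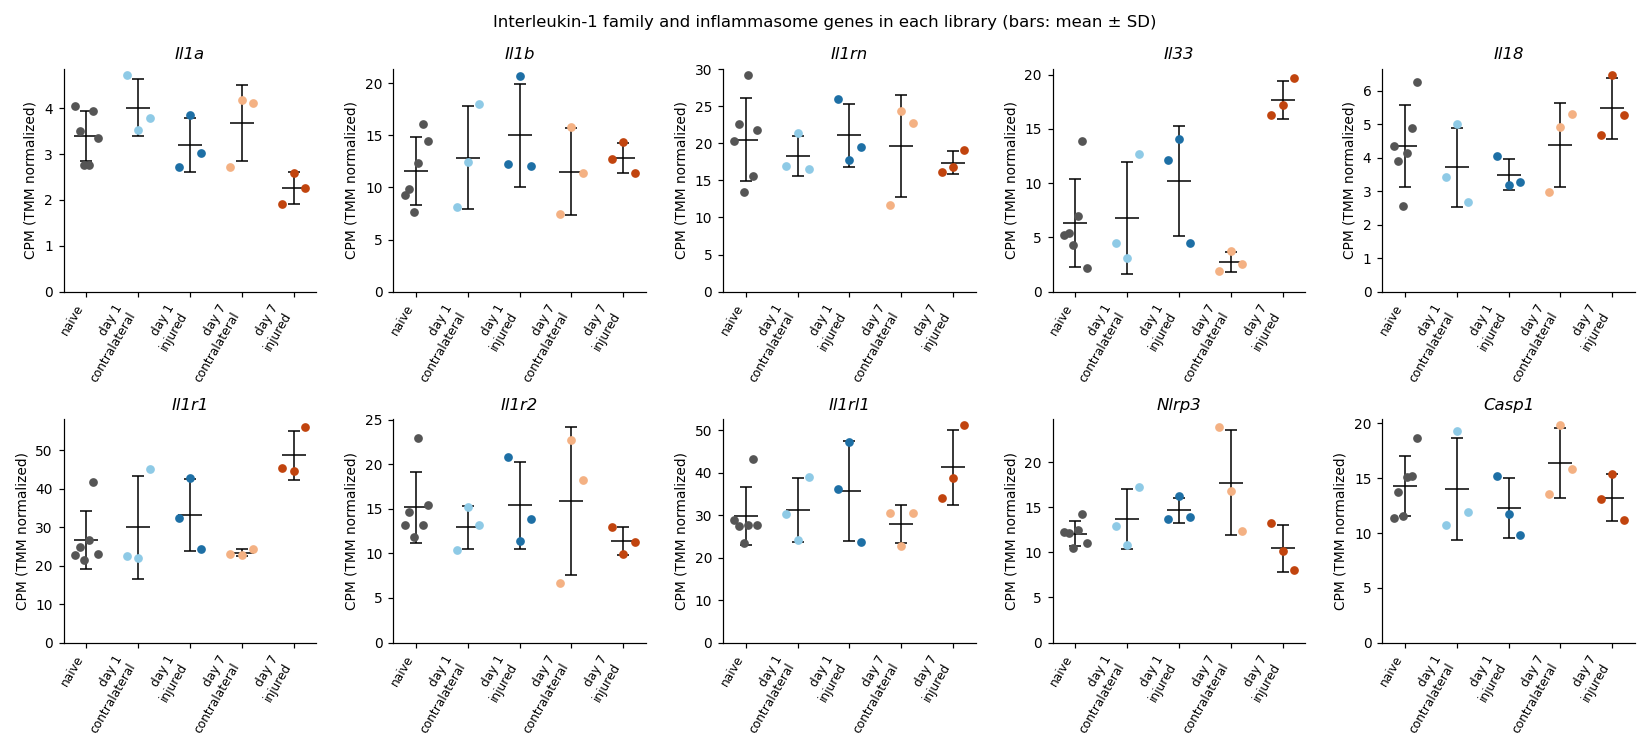
CPM of each of the 10 genes (vertical axes, linear from 0) in each of the 18 libraries by group (horizontal axes), with the group mean and SD as bars. The 3 day 7 injured libraries lie above every other library for Il33 (16.3 to 19.7 CPM) and below every other library for Il1a (1.91 to 2.60 CPM), while for Il1r1 the lowest of them (44.5) is just under the highest day 1 contralateral library (45.2).

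Among the ligands, Il33 had the largest difference. Its level was 16.3, 17.2 and 19.7 CPM in the day 7 injured libraries, against a lowest of 2.14, a median of 5.33 and a highest of 13.9 CPM in the naïve libraries. The day 7 contralateral libraries held 1.95, 3.74 and 2.57 CPM. All 3 injured libraries were above all 9 others of these groups, and the highest naïve library was replicate 5. The difference from naïve was 2.82-fold (log2 1.5 ± 0.485 SE, FDR 0.0304) and from contralateral 6.32-fold (log2 2.66 ± 0.605, FDR 0.00465). The call against naïve was narrow, since it was lost when naïve replicate 1 (FDR 0.0560) or 3 (0.0583), or injured replicate 1 (0.0583), 2 (0.0696) or 3 (0.0960), was left out. Without naïve replicate 5 it was 1.90 on the log2 scale (FDR 0.00468), and without day 7 contralateral replicate 1 the other difference was 2.52 (FDR 0.0208).

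Il1a had the lowest mean TPM of the ligands in the naïve and day 7 injured libraries and was held at 41 to 49 estimated counts in the day 7 injured libraries. Its level was 1.91, 2.60 and 2.27 CPM there and 2.73, 4.19 and 4.12 CPM in the contralateral libraries, and the naïve libraries ran from 2.76 through a median of 3.43 to 4.05 CPM. Every injured library was below every library of both other groups. Il1a was called lower than in the contralateral knees (0.604-fold, log2 -0.73 ± 0.221, FDR 0.0287). Against naïve its log2 difference of -0.57 ± 0.184 passed the FDR (0.0293) and fell short of 1.5-fold. This depended on the fit, since Il1a was called lower with no filter on low counts (log2 -0.59), at a minimum of 1 CPM (-0.62), with all 18 libraries in the fit (-0.59), and without naïve replicate 3 (-0.63) or 4 (-0.63) or injured replicate 2 (-0.68). The contralateral call was lost without contralateral replicate 2 (FDR 0.0798) or 3 (0.0768), without injured replicate 1 (0.106) or 3 (0.0845), and with only these 6 libraries in the fit (0.101), and it held without contralateral replicate 1 (log2 -0.86, FDR 0.0107).

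The other ligands were not called at day 7. Il1b stood at 12.7, 14.3 and 11.4 CPM in the injured libraries, within the naïve range of 7.60 to 16.1 CPM with its median of 11.1. Its log2 difference from naïve was 0.16 ± 0.268 (FDR 0.688; 95% interval -0.43 to 0.75). Il1rn, the antagonist, stood at 16.1, 16.9 and 19.2 CPM, within the naïve range of 13.4 to 29.2 with its median of 21.1, and differed by -0.22 ± 0.201 (FDR 0.436). Il18 stood at 4.68, 6.46 and 5.27 CPM, and 1 of the 3 libraries was above the naïve maximum of 6.27 CPM. Its log2 difference was 0.34 ± 0.238 (FDR 0.299). The 3 genes had overlapping groups in both day 7 comparisons, and their intervals do not show that they were the same.

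Of the receptors, Il1r1 was called higher in both day 7 comparisons. Its level was 45.4, 44.5 and 56.0 CPM in the injured libraries and 23.1, 22.8 and 24.3 CPM in the contralateral ones. The naïve libraries ran from 21.6 through a median of 23.9 to 41.7 CPM. The injured libraries were all above both groups, and the highest naïve value was again that of replicate 5. The difference was 1.84-fold against naïve (log2 0.88 ± 0.249, FDR 0.0153) and 2.08-fold against contralateral (log2 1.06 ± 0.279, FDR 0.0128). Without injured replicate 3 neither was called (FDR 0.0790 and 0.0693), and without day 7 contralateral replicate 1 the second held (log2 1.07, FDR 0.0339). The decoy receptor Il1r2 stood at 12.99, 9.88 and 11.3 CPM in the injured libraries, 2 of them under the naïve range of 11.8 to 22.9 CPM with its median of 13.9. It was not called (log2 -0.40 ± 0.219, FDR 0.186), although without day 7 contralateral replicate 1, whose own level was 6.70 CPM, it was called lower than in the contralateral knees (log2 -0.82, FDR 0.0448).

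In the comparison with the day 7 contralateral knees, 2 of the 10 genes were called higher (Il33 and Il1r1) where 9.33% of all 21262 genes were, and 2 lower (Il1a and Nlrp3) where 3.23% were. Every injured library was above every contralateral one for 3 genes, Il33, Il1r1 and Il1rl1 (18.6% of all genes), and below for Il1a (14.3% of all genes). This comparison shares its injured libraries with the one against naïve, so the values stand side by side and are not independent. The median log2 fold change of the 10 was -0.02, against -0.05 over all genes tested.

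**Figure D2:**
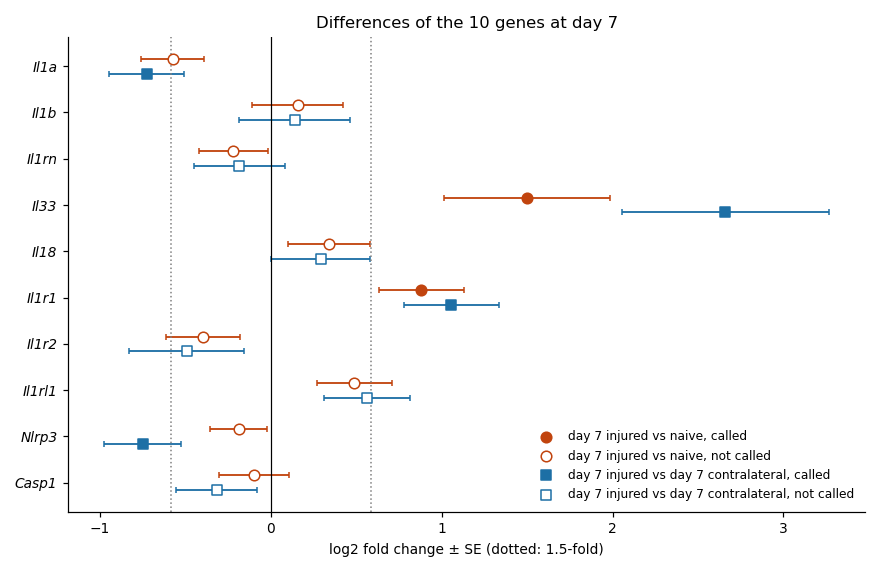
Log2 fold change with its SE (horizontal axis) of each of the 10 genes (vertical axis) for day 7 injured against naïve libraries (circles) and against day 7 contralateral libraries (squares), with filled symbols for called genes and dotted lines at 1.5-fold. Il33 (1.5 and 2.66) and Il1r1 (0.88 and 1.06) are filled to the right of the line in both comparisons, and Il1a and Nlrp3 are filled to the left against the contralateral libraries.

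Il1rl1, the gene of ST2, was not called as a whole in either comparison (log2 0.49 ± 0.220, FDR 0.107, against naïve, and 0.57 ± 0.251, FDR 0.133, against contralateral). Without naïve replicate 5 it was called higher than in the naïve knees (log2 0.63, FDR 0.0277). With a transcript length offset in the fit it was called higher than in the contralateral knees (log2 1.02). The transcripts of Il1rl1 were then taken apart by form. The shares of the forms, given below, did not pass the main test against naïve and were not tested against contralateral. The membrane form was taken as the transcripts that code for 567 residues, and the soluble form as the transcripts Il1rl1-203 and Il1rl1-205, which code for 337 residues. The membrane form stood at 19.1, 20.5 and 24.0 CPM in the day 7 injured libraries, against a naïve range of 19.8 to 24.2 CPM with a median of 22.3, so that 1 injured library was just under the range. It lay between 19.1 and 28.7 CPM in all 18 libraries.

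The soluble form ranged from 1.81 to 27.1 CPM over the same libraries. It stood at 15.01, 18.2 and 27.1 CPM in the day 7 injured libraries and at 1.81, 3.12 and 5.35 CPM in the contralateral ones. The naïve libraries ran from 3.73 through a median of 4.79 to 21.2 CPM, and their highest value, in replicate 5, was above 2 of the 3 injured libraries. With Il1rl1 split into its forms in the fit across all genes, a choice made after the shares had been seen, the soluble form was called higher than in the contralateral knees (log2 2.51 ± 0.709, FDR 0.0193). Against naïve its log2 difference was 1.41 ± 0.565 and was not called (FDR 0.0736), and without naïve replicate 5 it was 2.05 (FDR 0.00350). The contralateral call was lost without contralateral replicate 1 (FDR 0.0685) or 2 (0.0588) or injured replicate 3 (0.0793). The membrane form differed by -0.04 ± 0.113 from naïve (FDR 0.802; 95% interval -0.29 to 0.21) and by -0.21 ± 0.148 from contralateral (FDR 0.370; 95% interval -0.53 to 0.11).

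Shares of counts are not corrected for length, and the soluble transcripts are shorter than the membrane ones. As a share of the counts of Il1rl1, the soluble form made up 48.1% ± 4.56 (SD, n = 3) in the day 7 injured libraries. It made up 23.2% ± 13.2 (n = 6) in the naïve and 12.4% ± 5.93 (n = 3) in the day 7 contralateral libraries. Against naïve the difference of 24.9 percentage points had p = 0.0714 in an exact two-sided permutation test over libraries (0.214 adjusted over 3 forms), where the smallest p that 3 against 6 libraries allow is 0.0238. This outcome changed to an exact permutation p under 0.05, unadjusted, in 2 recomputations, from TPM (21.6 points) and without naïve replicate 5 (30.0 points). As a share of TPM the soluble form made up 65.85%, 71.71% and 74.95% in the day 7 injured libraries. The naïve libraries ran from 40.69% to 70.34%, and the day 7 contralateral ones held 14.05%, 38.31% and 45.06%. In the day 7 injured libraries most counts of the soluble form came from Il1rl1-203, which starts in the proximal region, shortly after the printed window. It stood at 15.2 ± 4.76 CPM in these libraries and at 1.34 ± 0.382 in the contralateral libraries. The transcript from the distal start stood at 4.94 ± 2.06 and 2.09 ± 1.62 CPM. CPM are not corrected for length, and Il1rl1-203 has 2661 bases against 1216 for the distal transcript. By CPM Il1rl1-203 was above it in 3 of 3 day 7 injured libraries, in 1 of 3 contralateral and in 1 of 6 naïve libraries. As a share of TPM the distal transcript was above Il1rl1-203 in day 7 injured replicate 2 (37.85% against 33.86%). In injured replicates 1 and 3 Il1rl1-203 stayed above. Without contralateral replicate 1 the contralateral means were 1.31 CPM for Il1rl1-203, 2.92 CPM for the distal transcript and 15.6% for the soluble share. At day 1 the soluble form stood at 13.6, 20.4 and 4.16 CPM in the injured and at 5.09, 4.35 and 15.1 CPM in the contralateral libraries, so that the groups overlapped. These transcripts share most of their exons, and the split rests on kallisto's estimate of how shared reads divide.

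**Figure D3:**
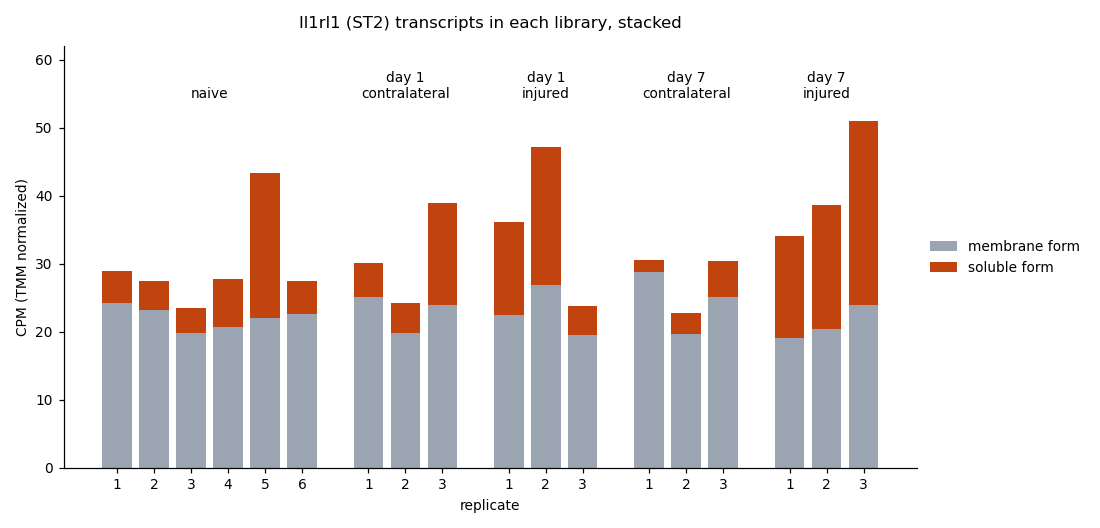
Estimated CPM of the membrane form (grey) and the soluble form (red) of Il1rl1, stacked from 0 on the vertical axis, in each of the 18 libraries by group and replicate (horizontal axis). The grey part stays between 19.1 and 28.7 CPM throughout, and the red part is tall in the 3 day 7 injured libraries, in naïve replicate 5, in day 1 contralateral replicate 3 and in day 1 injured replicates 1 and 2.

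The shares of other forms did not pass this test either. Il1rn has a secreted form, which made up 83.3% ± 0.583 of its counts in the day 7 injured and 77.7% ± 5.24 in the naïve libraries, and an intracellular form, at 9.98% ± 3.55 and 12.5% ± 3.76 (exact permutation p = 0.381). The short form of Il18, coding for 78 residues, made up 18.8% ± 6.51 and 20.6% ± 12.0 (exact permutation p = 0.833) on 6 to 47 counts per library. Il33 RNA came mainly from the distal start, which held 96.5% ± 5.91 of it in the day 7 injured and 87.7% ± 14.6 in the naïve libraries. Il1r1 RNA came mainly from the proximal start, at 90.5% ± 1.71 and 89.6% ± 1.83. In the day 7 contralateral libraries, where Il33 was lowest, the distal share was 64.7% ± 30.8, on 24 to 53 counts. The start shares were not tested.

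Of the inflammasome genes, Nlrp3 was called lower than in the day 7 contralateral knees (0.595-fold, log2 -0.75 ± 0.225, FDR 0.0270) and not against naïve (log2 -0.19 ± 0.166, FDR 0.418). It stood at 13.2, 10.1 and 8.05 CPM in the injured and at 23.9, 16.9 and 12.4 CPM in the contralateral libraries, and the naïve libraries ran from 10.4 through a median of 12.2 to 14.3 CPM. The groups overlapped, and the highest value was that of contralateral replicate 1. Without that library the difference was -0.46 (FDR 0.170), and the call was also lost without injured replicate 2 (0.0865) or 3 (0.151), in limma-voom (0.0590) and with only these 6 libraries in the fit (0.139). Casp1, the protease that cuts the interleukin-1β precursor, stood at 13.1, 15.4 and 11.2 CPM in the injured libraries, within the naïve range of 11.4 to 18.7 CPM with a median of 14.4 except for 1 library just under it. It differed by -0.10 ± 0.206 from naïve (FDR 0.750) and -0.32 ± 0.237 from contralateral (FDR 0.394).

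Between day 7 and day 1 injured knees none of the 10 genes was called in edgeR, where 9.04% of all genes were called higher and 6.38% lower. At an unadjusted p under 0.05 there were 3 (37.8% of all genes), and DESeq2 and limma-voom called none. A transcript length offset in the edgeR fit called 1 gene, Nlrp3, and leaving out each library gave 0 to 1 genes. All day 7 libraries were above all day 1 libraries for 3 genes (22.8% of all genes), Il33 (log2 0.80 ± 0.574), Il18 (0.66 ± 0.278) and Il1r1 (0.57 ± 0.294). All were below for 2 genes (17.5% of all genes), Il1a (log2 -0.49 ± 0.207) and Nlrp3 (-0.47 ± 0.189). The FDRs of these 5 lay between 0.0851 (Nlrp3) and 0.322 (Il33).

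At day 1 edgeR called no gene between injured and contralateral knees (0% of 21129 genes) or between injured and naïve knees (0%), where DESeq2 called 0 and 15 genes and limma-voom none, and none of the 10 had an unadjusted p under 0.05 in either. DESeq2 and limma-voom also called none of the 10. Il33 at day 1 stood at 12.1, 14.1 and 4.48 CPM in the injured and at 4.47, 3.13 and 12.7 CPM in the contralateral libraries. Each group thus held both high and low libraries. Between contralateral and naïve knees edgeR called no gene at day 1 (0%) or day 7 (0% of 21262 genes), DESeq2 called 2 and 8, and limma-voom none, and none of the 10 was called by any of them. At day 7 Il33 (log2 -1.18 ± 0.539, unadjusted p = 0.0431, edgeR) and Nlrp3 (0.54 ± 0.190, unadjusted p = 0.0107, edgeR) had the lowest unadjusted values of the 10. Without contralateral replicate 1 these were -1.02 (edgeR, unadjusted p = 0.126) and 0.27 (edgeR, unadjusted p = 0.174).

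Whether the injury difference itself changed from day 1 to day 7 was tested as a contrast of 4 groups. None of the 10 was called in edgeR, DESeq2 or limma-voom, where edgeR called 3.53% of all genes higher and 0.245% lower. The largest difference was that of Il33 (log2 2.07 ± 0.808, unadjusted p = 0.0199, FDR 0.190), followed by Il1r1 (0.91 ± 0.39, unadjusted p = 0.0313, FDR 0.243) and Nlrp3 (-0.85 ± 0.314, unadjusted p = 0.0153, FDR 0.165). Without day 7 contralateral replicate 1 the FDRs were 0.255, 0.264 and 0.338. A difference between the days was not shown for any of them.

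Of 10 synovial fibroblast markers, all tested, 5 (Pdgfra, Pdgfrb, Thy1, Cd34 and Dpt) were called higher at day 7 against naïve, where 10.4% of all genes were, and none lower. Against the contralateral knees, where 9.33% of all genes were called higher, 5 were, with or without contralateral replicate 1. Prg4, the gene of lubricin, which chondrocytes of the joint surface also express, made up 33.1% to 82.8% of the summed CPM of the list, and none of the 10 was at 0 in any library.

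The 9 markers other than Prg4 summed to 908, 1022 and 1101 CPM in the day 7 injured libraries, above all 15 others, which lay between 368 and 533 CPM. Prg4 stood at 730, 1133 and 1771 CPM in the day 7 injured libraries and from 373 through a median of 715 to 1409 CPM in the naïve ones, so that these groups overlapped. Outside the day 7 injured group the 4 libraries with the highest Prg4 were day 1 injured replicate 2, day 1 contralateral replicate 3, naïve replicate 5 and day 1 injured replicate 1, and the same 4 had the highest Il33, Il1r1 and soluble Il1rl1 levels. The first 3 of them had only 368, 374 and 402 CPM of the 9 other markers, below most libraries with low Il33. Day 1 injured replicate 1 went the other way, with 508 CPM of the 9 other markers. In naïve replicate 4, where the 9 markers reached 533 CPM, Il33 stood at 6.97 CPM, next below those 4 libraries. Setting Prg4 apart was chosen after the sums had been seen, and the part of these cells in the results was not tested.

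**Figure D4:**
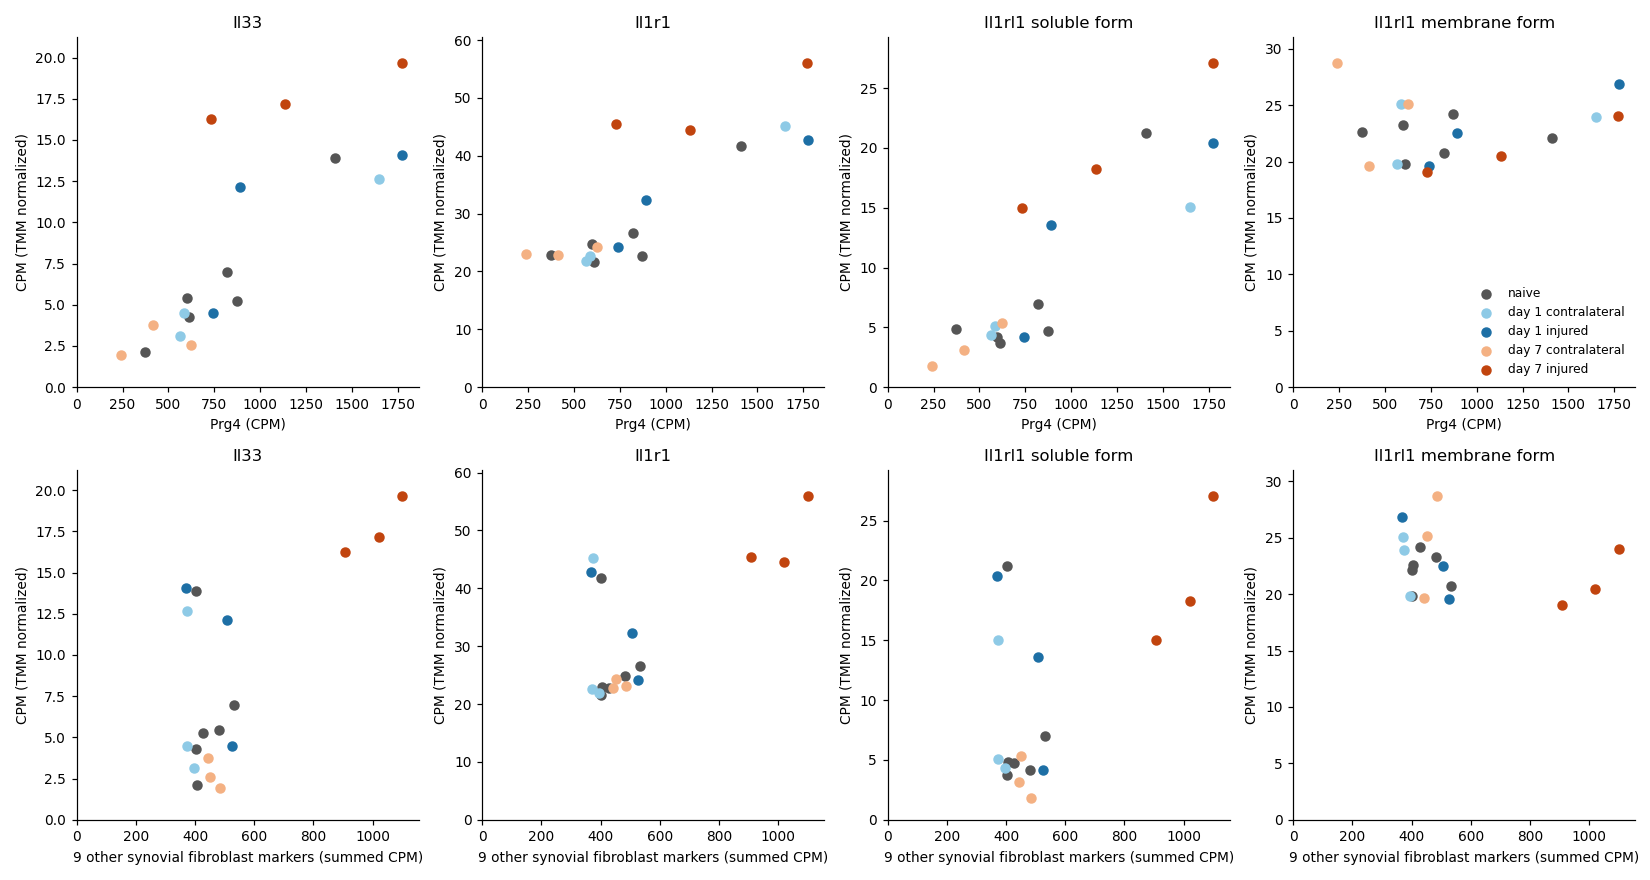
CPM of Il33, Il1r1, the soluble form and the membrane form of Il1rl1 (vertical axes, linear from 0) against the CPM of Prg4 (upper row) and against the summed CPM of the 9 other synovial fibroblast markers (lower row), each point 1 of 18 libraries coloured by group. In the left 3 upper panels the 3 naïve and day 1 libraries with the highest Prg4 are high, in the lower ones those 3 sit at 368 to 402 CPM apart from the day 7 injured libraries at 908 to 1101 CPM, and the membrane form lies between 19.1 and 28.7 CPM throughout.

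The counts of other cell type markers called are read against 10.4% of all genes called higher and 6.11% lower in this comparison, and several lists lay near these shares. Of 14 neutrophil and marrow myeloid markers 2 were called lower at day 7 against naïve (S100a8 and S100a9) and all 14 had log2 fold changes below 0. Their sum was 12153, 9351 and 8825 CPM in the injured libraries, against 11414 to 16812 CPM with a median of 13202 in the naïve and 12967, 18058 and 16146 CPM in the contralateral ones. Against the contralateral knees, the comparison in which Nlrp3 was called, 4 of the 14 were called lower (3.23% of all genes), and 6 without contralateral replicate 1. The gene with the most counts of them was Ngp in 10 libraries, S100a8 in 6 and Ltf in 2. Of 13 macrophage markers tested, with Lyz2 holding the most counts, none was called, and of 10 endothelial markers 4 were called higher. Of 10 adipocyte markers 5 were called lower, and of 8 erythroid markers 5 were called lower. Of the remaining lists 4 of 13 chondrocyte markers were called higher, 1 of 8 osteoclast markers higher, 2 of 10 osteoblast and osteocyte markers higher and 2 lower, and 1 of 10 muscle and 1 of 9 B cell markers lower. None of 10 T and NK cell and none of 8 mast cell markers tested was called. Outside the mast cell list, where up to 2 of 10 were, no marker was at 0 in any library. The part of each cell type in the levels of Il1r2, Il1rn, Nlrp3 and Casp1, genes that marrow myeloid cells also express, was not tested.

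The remaining members of the family were not called. Of 13 further ligands and receptors 8 passed the filter, and none was called at day 7 against naïve or contralateral by edgeR, DESeq2 or limma-voom, while 3 and 4 had an unadjusted p under 0.05 in edgeR (41.1% and 31.2% of all genes). Il36g, an interleukin-36 cytokine listed in the annotation as Il1f9, stood at 18.9 ± 2.52 CPM in the day 7 injured and 23.0 ± 5.30 CPM in the naïve libraries (log2 -0.27 ± 0.216, FDR 0.374). The shared accessory receptor Il1rap stood at 18.8 ± 0.882 and 18.6 ± 2.02 CPM (log2 0.04 ± 0.107, FDR 0.823). Sigirr, an inhibitory receptor, differed by 0.06 ± 0.156 (FDR 0.788). Il18r1, the ligand-binding receptor for interleukin-18, differed by -0.31 ± 0.124 (FDR 0.0773) and its binding protein Il18bp by -0.25 ± 0.142 (FDR 0.206). Without contralateral replicate 1 Il18r1 was called lower than in the contralateral knees (log2 -0.71, FDR 0.00476). In the row of receptor genes on chromosome 1, Il1r1 was called higher, and Il1r2, Il1rl2, Il1rl1, Il18r1 and Il18rap were not called.

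None of 27 signal transduction genes downstream of the receptors was called against naïve or contralateral by edgeR, DESeq2 or limma-voom, 10 and 9 had an unadjusted p under 0.05 in edgeR (41.1% and 31.2% of all genes), and their median log2 fold change against naïve was 0.07. Myd88, the adaptor, stood at 47.1 ± 3.83 CPM in the day 7 injured and 42.6 ± 6.64 in the naïve libraries (log2 0.16 ± 0.154, FDR 0.456). Nfkbia, the inhibitor that NF-κB itself induces, stood at 42.4 ± 5.89 and 39.4 ± 3.24 CPM (log2 0.12 ± 0.128, FDR 0.498).

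Of 25 other inflammasome genes, 1 was called lower at day 7 against naïve, Nlrp6 (0.895 ± 0.129 against 1.37 ± 0.151 CPM, log2 -0.59 ± 0.206, FDR 0.0426), where 6.11% of all genes were, and none higher, while 18 of the 25 log2 fold changes were below 0. DESeq2 and limma-voom called none against naïve, and 14 had an unadjusted p under 0.05 in edgeR (41.1% of all genes). The adaptor Pycard differed by -0.26 ± 0.147 (FDR 0.198) and the DNA sensor Aim2 by -0.44 ± 0.133 (FDR 0.0210), below the fold limit. The pore-forming effector Gsdmd differed by -0.16 ± 0.127 (FDR 0.356), the caspase of the non-canonical route Casp4 by -0.15 ± 0.255 (FDR 0.684) and the sensor Nlrp1b by -0.31 ± 0.398 (FDR 0.590). Against the contralateral knees, where 3.23% of all genes were called lower, 2 were, Nlrp12 and Card9, which were named after their values were seen. Without contralateral replicate 1 Nlrp12 was still called (log2 -0.63, FDR 0.00243) and Card9 was under the fold limit (log2 -0.56, FDR 0.0211), while Naip5 was called lower (log2 -0.60, FDR 0.00844). Of 11 proteases that can process the ligands, 2 were called higher against naïve (10.4% of all genes) and none lower, and 3 higher against contralateral (9.33% of all genes), with or without contralateral replicate 1. Called in both were Capn2 (186 ± 26.5 against 102 ± 14.1 CPM), a subunit of the calpain that cuts the Il1a precursor, and Mme (60.8 ± 10.4 against 35.4 ± 2.30 CPM), a membrane metalloendopeptidase. The neutrophil and mast cell proteases Elane, Prtn3, Ctsg, Cma1 and Mcpt4 were not called against naïve, and Cma1, a mast cell chymase, was the third called against contralateral (1.75 ± 0.356 against 0.797 ± 0.277 CPM, log2 1.19 ± 0.399, FDR 0.0454).

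Of 32 genes known to respond to interleukin-1 in chondrocytes, 28 passed the filter, 7 were called higher against naïve (10.4% of all genes) and none lower, and 6 were called higher against contralateral (9.33% of all genes). Without day 7 contralateral replicate 1 the last count was 4 higher and 1 lower. Against naïve the 28 genes had a median log2 difference of 0.41. Ptgs2, the inducible cyclooxygenase, stood at 42.1 ± 21.6 CPM against 2.92 ± 2.11 in the naïve libraries (log2 3.87 ± 0.647, FDR 0.000357). Tnfaip6, a hyaluronan-binding protein, stood at 53.9 ± 21.1 against 5.40 ± 7.00 CPM (log2 3.32 ± 0.946, FDR 0.0160), the aggrecanase Adamts4 at 31.3 ± 3.92 against 5.39 ± 2.84 CPM (log2 2.55 ± 0.467) and the hyaluronan synthase Has2 at 21.9 ± 5.44 against 6.33 ± 4.47 CPM (log2 1.80 ± 0.563). Hif1a, a hypoxia-inducible transcription factor, stood at 304 ± 61.6 against 100.6 ± 22.2 CPM (log2 1.61 ± 0.202), and the remaining called genes were Mmp13 and Ptges.

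The chemokine and cytokine genes named from that list were not called against naïve. Il6 stood at 0.644 ± 0.244 CPM in the day 7 injured and 0.641 ± 0.701 CPM in the naïve libraries (log2 0.02 ± 1.01, FDR 0.988), and Cxcl1, Cxcl2, Cxcl5, Ccl2, Ccl5 and Ccl7 were not called. The collagenase Mmp13 was called higher against naïve (501 ± 10.4 against 275 ± 97.5 CPM, log2 0.88 ± 0.222, FDR 0.00774) and not against contralateral (462 ± 65.3 CPM, log2 0.12, FDR 0.808, and 0.03 without contralateral replicate 1). Mmp3, a stromelysin, was not called against naïve (33.3 ± 3.60 against 8.33 ± 9.66 CPM, log2 2.0 ± 0.818, FDR 0.0779) and was called against contralateral (log2 3.21, FDR 0.0386), but not without contralateral replicate 1 (log2 3.36, FDR 0.0794). The aggrecanase Adamts5 stood at 68.0 ± 3.85 against 65.8 ± 11.1 CPM (log2 0.06 ± 0.128, FDR 0.734). These genes also answer to other stimuli, and which one acted here was not tested.

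**Figure D5:**
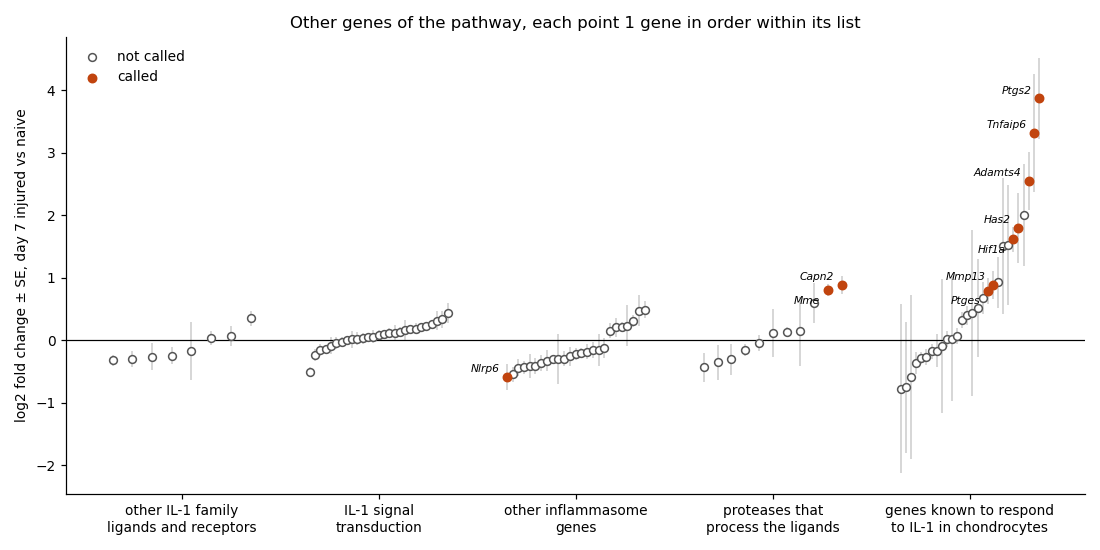
Log2 fold change with its SE (vertical axis) for day 7 injured against naïve libraries of each gene that passed the filter in 5 lists of the pathway (horizontal axis, genes in order of their value within a list), with called genes filled and named. Of the other inflammasome genes 18 of 25 sit below 0, and the 7 called genes of the response list reach 3.87 for Ptgs2.

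The genes whose levels most resembled each member were found by Pearson's r of log2 CPM over the 18 libraries, among 21261 others, as a description in which libraries share groups, depth and possibly mice. Il1r1 lay closest to Mmp19 (r = 0.990), Snai1 (0.988) and Tnfaip6 (0.982), and Il33 to Nptx1 (0.966), Vcan (0.944) and Layn (0.931). Il1rl1 lay closest to Il1r1 itself (0.890), then Fosl1 (0.885). The antagonist Il1rn and the decoy Il1r2 resembled each other (0.880), with Dhrs9 (0.870) and Slc7a11 (0.865) next to Il1rn, and Hacd2 (0.921), Mrgpra2b (0.898) and A530064D06Rik (0.895) nearest to Il1r2. Casp1 lay closest to the interferon-responsive genes Ifi209 (0.927), Ms4a4c (0.893) and Irf9 (0.881), and Nlrp3 to Cyp4f18 (0.864), Neurl3 (0.850) and Gmip (0.838). Il1a lay closest to Fyb (0.893), Chek2 (0.875) and 2610507I01Rik (0.871), Il1b to Ccl9 (0.831), Ggta1 (0.814) and 3300005D01Rik (0.805), and Il18 to Lyrm2 (0.816), Gm19196 (0.815) and Tnfsf8 (0.792). Among the members themselves the highest r was between Il33 and Il1r1 (0.918).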

How the data were processed

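Per the labels, 18 libraries of mouse knee cartilage RNA were assigned to 5 groups, and replicates were numbered in accession order within a group and pair nothing. After trimming, the authors quantified transcripts of the mouse (GRCm38) by kallisto pseudo-alignment, and they deposited estimated counts, TPM values and effective lengths per transcript, the TPM values scaled by transcript length and library total. The submitters' processing notes name GRCh38, while all identifiers are of mouse. Transcripts were matched without version to GENCODE vM21, which gave a gene for 135107 of 137436 (98.3%), and estimated counts were summed per gene and rounded. Genes were tested with edgeR 4.0.16 (R 4.3.3; TMM, filterByExpr, quasi-likelihood F test, Benjamini-Hochberg over all genes tested) with calls at 1.5-fold or more and an FDR no higher than 0.05. Comparisons without day 7 contralateral libraries were fitted on 15 libraries and those with them on all 18. An SE is the log2 fold change over the root of F, and 95% intervals from the SE with 11 or 13 residual degrees of freedom. The study's limma model of shared animals could not be refitted, since the labels do not name the pools. Transcript shares were compared by an exact two-sided permutation test over libraries with at least 20 counts of the gene, for forms that differ in coding sequence. Promoters came from RefSeq (GRCm38.p6), and a RefSeq entry matched all 10 genes. Tests were tried on simulated counts first. Alternatives were DESeq2 1.42.0, limma-voom (limma 3.58.1), other size factors, filters, groups in the fit, a transcript length offset, no fold limit and leaving out each library. Genes were named by a rule: all 10 members, 16 fixed pathway genes, up to 4 further genes per pathway list with the largest difference among those called with separate groups against naïve, and the 3 genes nearest to each member. One result under this rule is not reported here. The members and lists were chosen with earlier results of these data known.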

Additional observations from a re-analysis of the deposited data

Results flagged for a closer look

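In the naïve group the highest value of several genes lay far from the others. By Dixon's test at the 95% level for 6 libraries, replicate 5 stood out for Il1r1 (41.7 CPM, next highest 26.6), for Il1rl1 (43.3 CPM, next highest 28.9), for the soluble form of Il1rl1 (21.2 CPM, next highest 6.98) and for that form's share of the counts of Il1rl1 (49.0%, next highest 25.2%). Il1r2 stood out in replicate 4 (22.9 CPM, next highest 15.4). These are 5 of 18 values examined, which include overlapping measures of the same genes, and chance flags about 1 in 20 groups. In naïve replicate 5 Prg4 stood at 1409 CPM, the highest of the 6 naïve libraries, while the 9 other synovial fibroblast markers summed to 402 CPM, among the lowest of the 6. The neutrophil and marrow myeloid markers summed to 16812 CPM in replicate 4, the highest of the 6. Their part in these values was not tested.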

How the results depend on the processing

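Counts of called genes and form shares kept their value within the limits set, or their call, in 148 of 160 recomputed counts and shares. Leaving out each library gave 0 to 3 genes for day 7 injured against naïve (2 as reported), 1 to 4 against contralateral (4), 0 to 1 against day 1 injured (0) and 0 for the 5 other comparisons. Fitting only the compared libraries gave 2 genes against contralateral, and the transcript length offset gave 1 gene, Nlrp3, between day 7 and day 1 injured. The same offset, which allows for transcript lengths that differ between libraries, called Il1rl1 higher than in the contralateral knees (log2 1.02, FDR 0.0293). The difference in the soluble share of Il1rl1 lay between 22.4 and 30.0 percentage points when each library was left out and was 21.6 points from TPM (exact permutation p = 0.0476). Single values turned sign near 0. Leaving out each library gave -0.22 to 0.0153 on the log2 scale for Casp1 against naïve, turned without injured replicate 3, -0.0604 to 0.419 for Il1b against contralateral, turned without contralateral replicate 1, and -0.140 to 0.0317 for the membrane form of Il1rl1 against naïve, turned without injured replicate 1. The same held for the share of the short form of Il18, which ran from -4.66 to 1.91 points and was 0.273 without naïve replicate 4, 1.73 without naïve replicate 5 and 1.91 without injured replicate 3. The cause of these changes was not tested. No paired analysis was possible because the labels do not say which libraries share mice. Low depth limits Il1a, with 35 to 162 counts per library, and Il33 in the day 7 contralateral libraries, with 25 to 84, and every comparison has a group of 3 libraries.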
